A study of Mus musculus with 8 samples.

Results

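A set of 9 genes of G-protein signalling were followed through single-cell RNA counts of mouse pancreatic islets, chosen by their symbols: the receptors Glp1r, Gipr, Gcgr and P2ry1, the G-protein subunits Gnas and Gng12, and the regulators of G-protein signalling Rgs2, Rgs4 and Rgs16. All 9 were among the 24421 genes counted in each of the 8 samples. The samples were islets of male 8-week-old C57BL/6J mice, 4 from mice that had undergone 50% partial pancreatectomy (PPTx) 2 days earlier and 4 from control mice that received no operation, with islets of 1 to 3 mice pooled in each sample. PPTx removes part of the pancreas to set off replication of the remaining β-cells. Because the splenic side was removed and control mice were not operated on, the effect of the operation, of surgery itself and of the pancreatic region cannot be told apart. Of 1240 deposited cells, 1232 passed the limits on genes and unique molecular identifiers (UMIs, each standing for 1 captured RNA molecule), 520 from control and 712 from PPTx islets.

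Hormones of the gut and of the islet act on islet cells through receptors of this kind. GLP-1 and GIP, the incretins, and glucagon bind receptors that couple to the stimulatory G protein Gs, which activates adenylyl cyclase, raises cAMP and amplifies glucose-induced insulin release from β-cells. The ADP receptor P2Y1 couples to Gq, which activates phospholipase C and releases calcium from internal stores. RGS proteins speed the return of G-protein α subunits to their inactive state, and so shorten the signal.

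Cells were assigned to classes by their leading hormone, which had to hold at least 2 times the UMIs of the next, giving 953 β-like (Ins1 and Ins2), 114 α-like (Gcg), 130 PP-like (Ppy) and 13 δ-like (Sst) cells, with 22 mixed cells left out. None of the 9 genes was used for this. Of the 10 leading genes of each class by fold, 5 in β-like and 5 in α-like cells were markers of that class, against 3 in PP-like and 3 in δ-like cells, and 1 marker of another type, Ghrl in β-like cells, came from a single cell with 4588 Ghrl UMIs. UMIs per sample ran from 227439 in control replicate 1 to 1580152 in control replicate 3, and the median per cell was 5792 in control and 5399.5 in PPTx islets. Levels are given as CPM, the UMIs of a gene per 1000000 UMIs of a class in a sample. They rest on the 3′ ends of transcripts and are compared between classes and samples, not between genes. Insulin RNA gives only a partial guide to free RNA and mixed droplets: its level in α-like cells was 1.48% of that in β-like cells, and in PP-like cells 1.64%. Cells with much insulin RNA beside another hormone had been left out as mixed, so the class rule holds these values down.

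In these 3′ counts both incretin receptors had few UMIs, and Glp1r was near the limit of detection. Their levels against those of other genes are not read from these counts. Glp1r, the GLP-1 receptor (chr17:30901867-30936510, mm10), had 6 UMIs in all β-like cells, 0 in every control sample and 3, 2 and 1 in PPTx replicates 2, 3 and 4, and none in PPTx replicate 1. This came to 0.941 CPM over all β-like cells (95% exact Poisson interval 0.345 to 2.05, counting error only). It had 0 UMIs in α-like, PP-like and δ-like cells, where a count of 0 allows up to 6.17, 4.07 and 72.7 CPM. The gene was below the count minimum of the edgeR test. In CPM over β-like samples, control stood at 0 and PPTx at 1.57 ± 1.07 (SD, n = 4 each, exact two-sided permutation p = 0.143), and the exact sign-flip permutation p against β-like cells was 0.500 for α-like and 0.250 for PP-like cells, so that no difference was detectable at this depth. Gipr, the GIP receptor (chr7:19156063-19170248), had 121 UMIs in β-like cells, or 19.0 CPM over all of them, with 5 in α-like cells (10.3 CPM, interval 3.34 to 24.0) and 7 in PP-like cells (9.49 CPM, interval 3.82 to 19.6). Its log2 fold change against β-like cells was -1.47 ± 0.65 (SE) in α-like cells and -1.50 ± 0.57 in PP-like cells, and neither passed the test (edgeR quasi-likelihood test, Benjamini-Hochberg adjusted p = 0.115 and 0.0588). Without PPTx replicate 2 the PP-like value was -2.74 and passed (edgeR adjusted p = 0.0151). In CPM, Gipr was below the β-like level in 6 of 7 samples for each class. The exact sign-flip permutation p was 0.109 for α-like and 0.0312 for PP-like cells. Cells were also compared after each was thinned to 2000 UMIs, hormone UMIs included. These took on average 65.5% of UMIs in β-like and 47.4% in α-like cells of control samples, so the depth left for other genes still differed between classes. After thinning, 2.94% of β-like, 2.63% of α-like and 1.54% of PP-like cells held a Gipr UMI.

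The glucagon receptor and the ADP receptor were seen in β-like cells and were at or near 0 in α-like and PP-like cells, while the 13 δ-like cells were too few to place them. Gcgr (chr11:120529185-120538989) had 193 UMIs in β-like cells, 1 in PP-like cells and 0 in α-like and δ-like cells, the last of which allows up to 72.7 CPM. Its level in β-like cells ranged from 20.1 CPM in PPTx replicate 4 to 57.2 CPM in control replicate 2, with a median of 28.5 CPM over 8 samples, so that every β-like sample lay above every α-like and PP-like sample. Over pooled cells, the β-like level of 30.3 CPM was at least 4.9-fold higher than the α-like level, taking 3 UMIs over all α-like cells as the limit of a count of 0. P2ry1 (chr3:61002785-61008982) had 476 UMIs in β-like cells against 0 in α-like, 2 in PP-like and 2 in δ-like cells, the last giving 48.5 CPM (interval 5.87 to 175). Its β-like level was 50.8 CPM at the lowest, in control replicate 2, and 107 CPM at the highest, in PPTx replicate 2. Over pooled cells, its 74.6 CPM was at least 12.1-fold the α-like level by the same limit. Both genes passed the test in α-like cells (edgeR adjusted p = 7.96e-07 for Gcgr and 2.96e-13 for P2ry1) and in PP-like cells (2.29e-07 and 1.27e-17). In each of 7 samples both genes were lower than in β-like cells (two-sided p = 0.0156 for each gene and class by exact sign-flip permutation, the smallest that 7 pairs allow). In thinned cells, 6.82% of β-like cells held a Gcgr UMI (65 of 953, exact 95% interval 5.3 to 8.61%) and 13.9% a P2ry1 UMI. The corresponding counts were 0 of 114 α-like cells for both genes, which, taking 3 cells as the limit of a count of 0, allows up to 2.63% of cells with a UMI at this depth, and 1 of 130 PP-like cells.

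**Figure D1:**
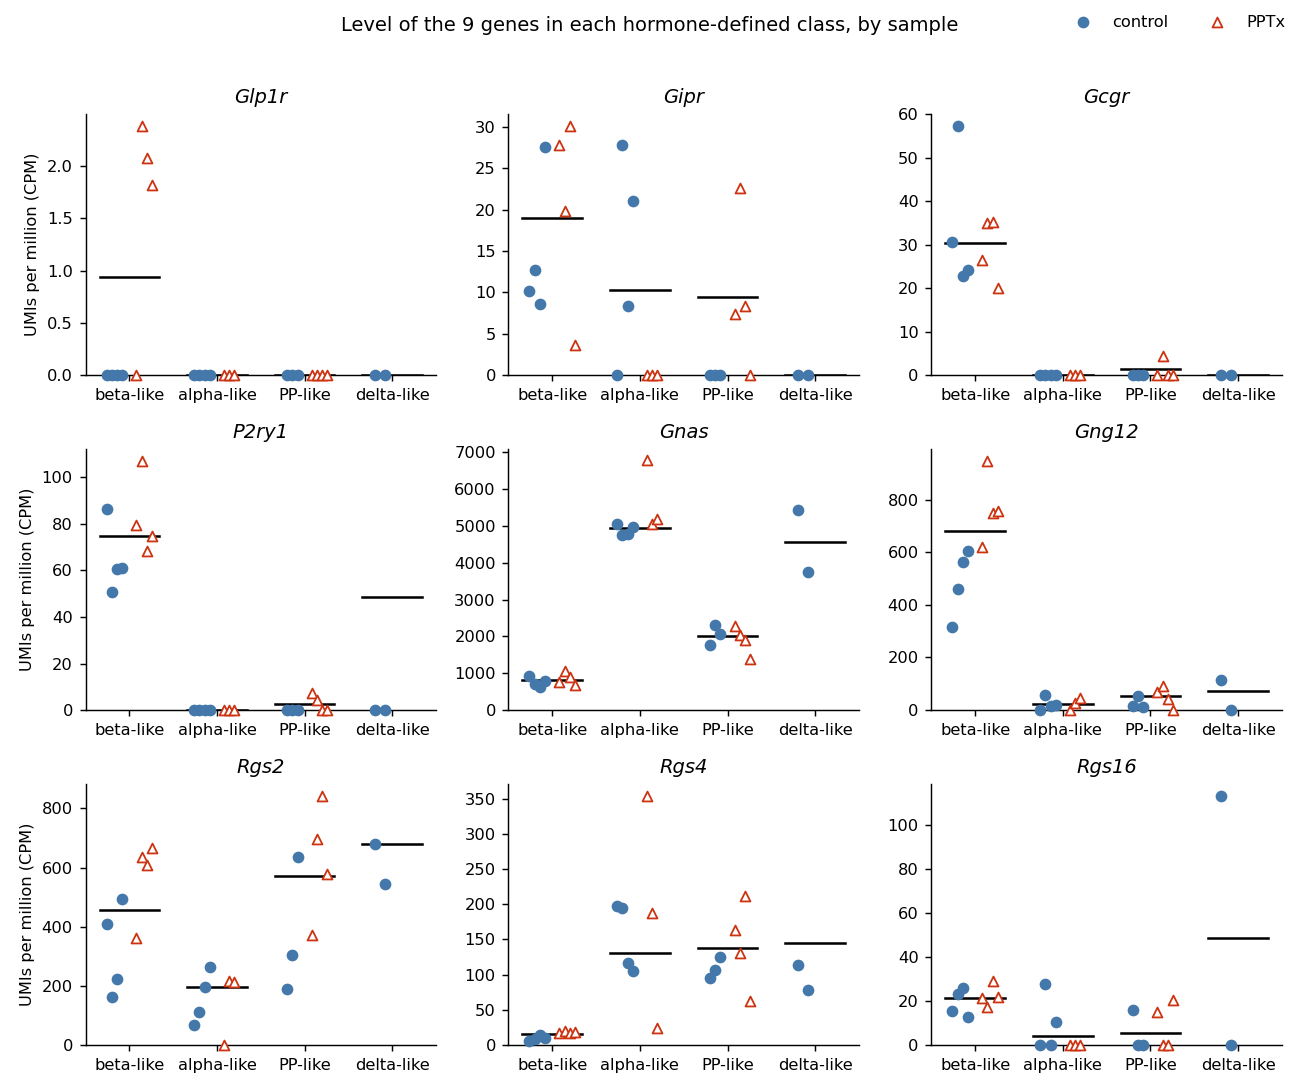
Level of each gene (CPM, linear axis from 0) in each hormone-defined class, with filled circles for control samples, open triangles for PPTx samples, each with at least 3 cells of the class, and a black line for the level over all cells of the class pooled. Gng12, Gcgr and P2ry1 sit high in β-like cells, Gnas and Rgs4 in the other classes, and δ-like points come from 2 control samples of 3 cells each.

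The subunits went in opposite directions between the classes. Gnas (chr2:174284320-174346744) encodes the α subunit of Gs from a locus with several promoters and an antisense transcript, and 3′ counts do not separate its transcripts. In α-like cells it stood at 5055, 4760, 4785 and 4967 CPM in control replicates 1 to 4 and at 6792, 5046 and 5192 CPM in PPTx replicates 1 to 3. In β-like cells it ran from 627 CPM in control replicate 3 to 1063 CPM in PPTx replicate 2, so that the lowest α-like sample was above the highest β-like one. PP-like samples lay between them without overlapping either, from 1380 CPM in PPTx replicate 4 to 2299 CPM in control replicate 3. The log2 fold change against β-like cells was 1.69 ± 0.21 in α-like cells (edgeR adjusted p = 1.56e-13) and 0.86 ± 0.13 in PP-like cells (4.40e-09). Both δ-like samples were high, at 5443 and 3740 CPM. Their log2 fold change against β-like cells was 0.73 ± 0.35, not past the test (edgeR adjusted p = 0.694). Under library sizes without hormone genes it was 1.90 and passed (5.75e-05). PP-like cells were lower than α-like cells in 6 of 6 samples, with a mean difference of -3198 CPM (exact sign-flip permutation p = 0.0312, the smallest possible). The same difference was -0.80 ± 0.25 on the log2 scale and did not pass over all genes with TMM (edgeR adjusted p = 0.157), whereas without hormone genes in the library sizes it was -0.90 and did (3.56e-09), as it did under TMM without PPTx replicate 1 (-0.92, edgeR adjusted p = 0.00326). In thinned cells Gnas was seen in 114 of 114 α-like, 122 of 130 PP-like and 721 of 953 β-like cells.

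Gng12 (chr6:66896397-67021361), a γ subunit that forms the signalling βγ dimer with a β subunit, showed the reverse. It had 4347 UMIs in β-like cells, 682 CPM over all of them, with 22.6 CPM in α-like cells (11 UMIs, interval 11.3 to 40.5), 52.9 CPM in PP-like cells (39 UMIs, interval 37.6 to 72.3) and 72.7 CPM in δ-like cells (3 UMIs, interval 15.0 to 213). No β-like sample was below 316 CPM and no α-like or PP-like sample above 90.3 CPM. The log2 fold change against β-like cells was -5.45 ± 0.37 in α-like cells, -4.22 ± 0.21 in PP-like cells and -5.32 ± 0.86 in δ-like cells, where only the 2 samples with at least 3 such cells entered the test, and all passed (edgeR adjusted p = 2.78e-46, 9.33e-86 and 2.27e-07). The δ-like estimate rests on 1 UMI in those 2 samples and leaves out control replicate 3, whose 2 δ-like cells held the other 2. Over all 13 δ-like cells the β-like level was 9.37-fold the δ-like level. The estimate was -4.18 without hormone genes in the library sizes, and the call was lost with DESeq2 (adjusted p = 0.0666). The level in α-like cells was 3.32% and in PP-like cells 7.76% of that in β-like cells. The insulin genes stood at 1.48% and 1.64%, values that the class rule holds down, so they set no upper limit on the background. The highest PP-like sample, PPTx replicate 2, was also the one with the most insulin RNA in its PP-like cells, 17393 CPM against 3178 to 10236 CPM in the other samples with at least 3 such cells. The part of mixed droplets in these low levels was not tested. After thinning, 65.6% of β-like cells (interval 62.5 to 68.6%), 4.39% of α-like cells and 8.46% of PP-like cells held a Gng12 UMI.

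The regulators of G-protein signalling did not share a pattern. Their promoters are shown because the 3 genes, all on chromosome 1, differ in where they were expressed. Each sequence is the 250 bases before the annotated start from RefSeq (GRCm38.p6), 5′ to 3′ on the gene's strand, with matches to the cAMP-response-element half-site TGACG on either strand and to TATAAA on either strand in capitals.
Rgs2, chr1:144004150-144004399, minus strand: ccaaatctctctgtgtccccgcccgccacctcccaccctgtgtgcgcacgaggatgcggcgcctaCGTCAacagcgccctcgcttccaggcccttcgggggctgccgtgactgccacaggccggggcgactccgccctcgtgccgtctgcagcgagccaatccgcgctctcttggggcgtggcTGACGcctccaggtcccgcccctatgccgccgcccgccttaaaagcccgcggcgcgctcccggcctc
Rgs4, chr1:169747643-169747892, minus strand: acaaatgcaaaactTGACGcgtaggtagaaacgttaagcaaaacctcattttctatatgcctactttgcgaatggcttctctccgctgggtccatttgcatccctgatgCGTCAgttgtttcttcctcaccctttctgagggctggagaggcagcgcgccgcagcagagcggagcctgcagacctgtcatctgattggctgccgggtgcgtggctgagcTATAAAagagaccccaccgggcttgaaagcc
Rgs16, chr1:153740103-153740352, plus strand: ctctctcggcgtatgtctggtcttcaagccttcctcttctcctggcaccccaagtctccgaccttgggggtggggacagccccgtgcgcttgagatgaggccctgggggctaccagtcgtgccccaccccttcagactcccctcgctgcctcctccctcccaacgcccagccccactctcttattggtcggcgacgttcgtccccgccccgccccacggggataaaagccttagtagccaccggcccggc
Rgs2 held 2 half-sites, starting 185 and 67 bases before the start, Rgs4 held 2, at 236 and 141 bases, with a TATAAA at 31 bases, and Rgs16 held neither. Of 32851 such windows, 17.8% held a half-site and 12.4% a TATAAA, and none of the 3 held the full element TGACGTCA, which contains the half-site and occurred in 1.55%. These matches are letters only and say nothing of whether a factor binds. Promoter windows of 8 of the 9 genes were matched by symbol.

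Rgs2 (chr1:143999338-144004149), whose product acts mainly on Gq, was lower in α-like cells than in β-like and PP-like cells. In α-like cells it stood at 65.7, 111, 196 and 263 CPM in control replicates 1 to 4 and at 0, 215 and 214 CPM in PPTx replicates 1 to 3. In β-like cells it ran from 161 to 665 CPM and in PP-like cells from 189 to 842 CPM, so the classes overlapped between samples. Within samples, α-like cells were below β-like cells in 7 of 7, with a log2 fold change of -1.95 ± 0.27 (edgeR adjusted p = 2.79e-11), and PP-like cells were above α-like cells in 6 of 6, with 1.86 ± 0.32 (4.14e-06). The latter call was lost in cells thinned to 2000 UMIs (1.71, edgeR adjusted p = 0.233). PP-like and β-like cells differed by -0.20 ± 0.15 (0.413), and this estimate was 0.17 without hormone genes in the library sizes and -0.63 in thinned cells, where it passed (edgeR adjusted p = 0.0381). The δ-like level was 679 CPM from 28 UMIs (interval 451 to 981 CPM). Among thinned cells, 27.2% of α-like cells (interval 19.3 to 36.3%), 46.8% of β-like cells and 55.4% of PP-like cells held an Rgs2 UMI.

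Rgs4 (chr1:169741477-169747642), which acts on Gi and Gq, was the reverse of Gng12. No β-like sample exceeded 19.8 CPM, while α-like samples ran from 23.8 CPM, from 1 UMI in PPTx replicate 3, to 354 CPM, from 6 UMIs in PPTx replicate 1, and PP-like samples from 61.8 to 211 CPM. The log2 fold change against β-like cells was 2.46 ± 0.36 in α-like cells and 2.73 ± 0.28 in PP-like cells (edgeR adjusted p = 7.33e-10 and 1.55e-20), higher in 7 of 7 samples each. Over pooled cells the level was 8.61-fold in α-like and 9.19-fold in PP-like cells that of β-like cells. α-like and PP-like cells overlapped, with 63 and 102 UMIs or 130 and 138 CPM over pooled cells. After thinning, 26.3% of α-like, 18.5% of PP-like and 3.15% of β-like cells held an Rgs4 UMI. Rgs16 (chr1:153740353-153745468), which acts on Gi and Gq, was sparse. It had 137 UMIs in β-like cells (12.6 to 29.1 CPM by sample), 2 in α-like, 4 in PP-like and 2 in δ-like cells. The log2 fold change was -3.00 ± 0.80 in α-like cells (edgeR adjusted p = 0.00257) and -2.26 ± 0.64 in PP-like cells (0.00522). Both lost the call with DESeq2 (0.0993 and 0.0837) and without 1 sample each (0.123 without control replicate 3 and 0.0501 without PPTx replicate 2).

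Of the 9 genes, 7 passed in α-like against β-like cells (2 higher, 5 lower, 8 tested), where 14.3% of 10756 genes passed (2.76% higher, 11.5% lower), and 6 in PP-like against β-like cells (2 higher, 4 lower, 8 tested), where 14.7% of 10906 passed (3.29% higher, 11.4% lower). In δ-like cells 1 of 5 tested passed (Gng12), against 1.4% of 4073 genes, and between PP-like and α-like cells 1 of 5 (Rgs2), against 0.531% of 7724. Log2 values above were scaled by TMM unless another setting is named, and under TMM the median gene lay at -0.45 in α-like and -0.33 in PP-like against β-like cells. Without hormone genes in the library sizes these medians were -0.19 and 0.00, and genes called higher and lower numbered 523 and 903 in α-like cells, where TMM gave 297 and 1242, and 673 and 639 in PP-like cells, where TMM gave 359 and 1245. The members that passed kept their direction and their call under that scaling in both comparisons.

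**Figure D2:**
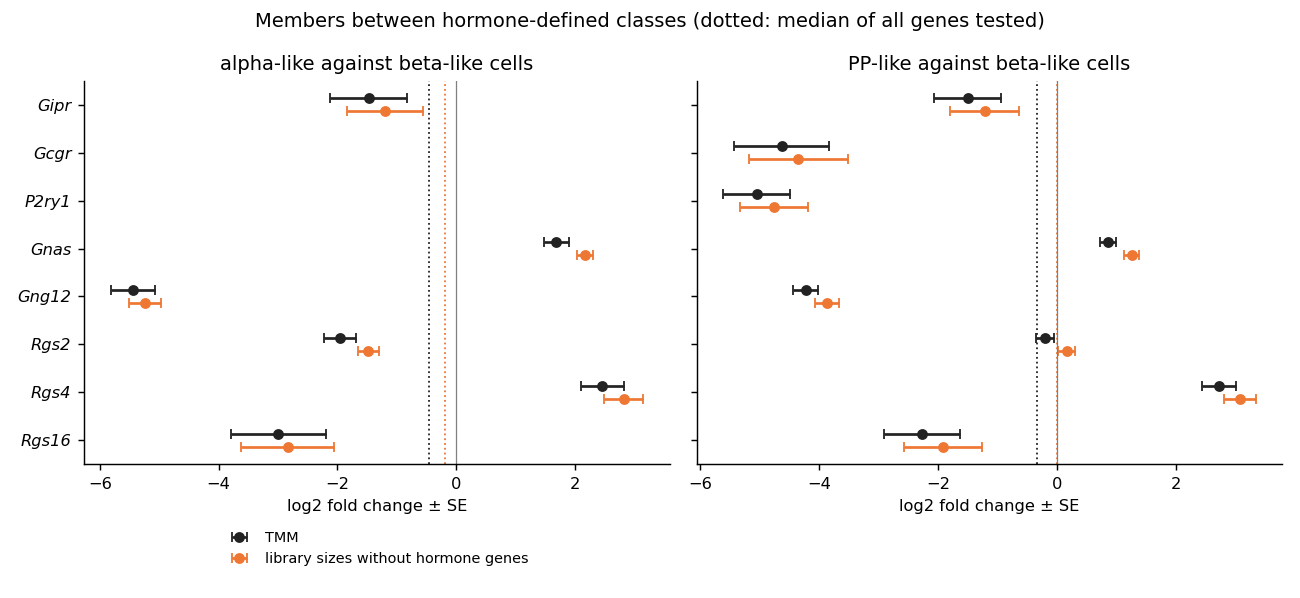
Log2 fold change ± SE (edgeR, sample as block, 7 samples) of members in α-like and PP-like against β-like cells, under TMM (black) and library sizes without hormone genes (orange); dotted lines mark the median of all genes tested. Gcgr and P2ry1 are not drawn in α-like cells, where both had 0 UMIs; Gnas and Rgs4 lie right of 0 and Gng12 far left under both scalings.

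**Figure D3:**
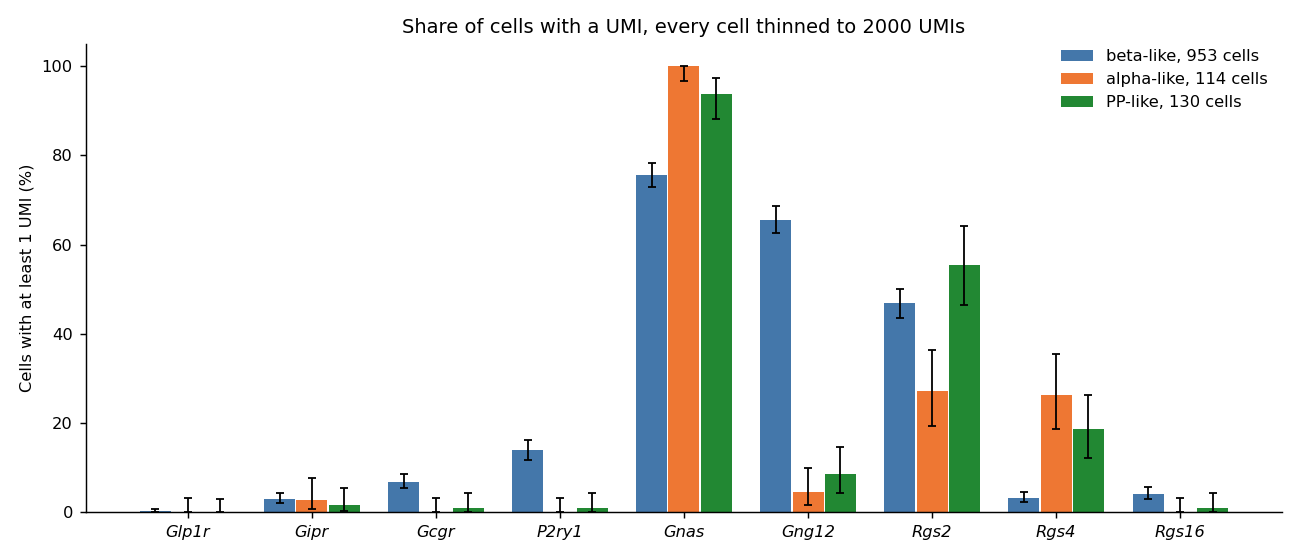
Share of cells with at least 1 UMI of each gene after every cell was thinned to 2000 UMIs; bars show 953 β-like, 114 α-like and 130 PP-like cells pooled over samples, and error bars the exact 95% binomial interval, which covers counting error only. Gnas was seen in 100% of α-like and 75.7% of β-like cells, Gng12 in 4.39% and 65.6%.

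Other genes of these pathways were counted from fixed lists. Of all genes tested against β-like cells, 2.76% were higher and 11.5% lower in α-like cells, and 3.29% and 11.4% in PP-like cells. In α-like cells, 2 lower genes of a list of 15 or 16 lie near that share. Of the receptor list, 21 of 55 were tested in α-like against β-like cells, 4 were higher and 7 lower. Among them were Adra2a, the α2A-adrenergic receptor that restrains insulin release (498 UMIs in β-like and 2 in α-like cells, log2 fold change -5.00 ± 0.65), and Gpr158, an orphan receptor (309 and 1 UMIs, -4.90 ± 0.80). In PP-like cells 2 of 23 receptors were higher and 5 lower, Gpr158 (-5.29) and Adra2a (-3.34) again lower. Of 16 other G-protein subunits tested in α-like cells, 1 was higher, the inhibitory subunit Gnai1 (1.98 ± 0.40), and 2 lower, Gng4 (-1.28 ± 0.33) and Gnai2 (-0.66 ± 0.24). The last depended on the scaling, since Gnai2 stood at 426 CPM in α-like and 337 CPM in β-like cells and was at -0.30 without hormone genes in the library sizes, not past the test (edgeR adjusted p = 0.224). In PP-like cells 1 of 17 subunits was higher and 3 were lower, and without hormone genes in the library sizes these counts turned to 3 and 1. Of 16 other RGS, kinase and arrestin genes, 2 were lower in α-like cells, among them Rgs11 (-2.68 ± 0.54), and in PP-like cells 6 were lower, Rgs11 included (-2.46 ± 0.44), and 1 higher. Of 22 cAMP genes tested, 1 was higher and 6 lower in α-like cells, with the phosphodiesterase gene Pde4b at -3.13 ± 0.69, and 2 were lower in PP-like cells. Of 15 genes of the Gq and phospholipase C list, Itpr1, an IP3-gated calcium channel of the endoplasmic reticulum, was the 1 higher gene in both classes (2.74 ± 0.35 in α-like and 2.32 ± 0.33 in PP-like cells). Of the same list, 2 genes were lower in α-like and 3 in PP-like cells. Without hormone genes in the library sizes, 2 were lower in PP-like cells. Trpm5, a calcium-activated cation channel, was lower in both classes (-6.29 ± 0.68 and -6.09 ± 0.59). It had 627 UMIs in β-like cells, 1 in α-like and 1 in PP-like cells. The median log2 fold change of the lists in α-like cells ran from -0.77 to -0.20, beside -0.45 for all genes tested. Without hormone genes in the library sizes it ran from -0.60 to 0.09, beside -0.19. Under that scaling, the counts higher and lower in α-like cells became 4 and 6 of the receptors, 3 and 1 of the subunits and 2 and 5 of the cAMP genes, and in PP-like cells 4 and 3 of the receptors, 1 and 4 of the RGS, kinase and arrestin genes and 1 and 0 of the cAMP genes. The genes named here other than Gnai2 kept their direction and call with it.

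Across 21 libraries of a sample and class with at least 5 cells, the genes most like each member among 3341 were found by Pearson's r of log2(CPM + 10). For P2ry1 these were Enho (r = 0.985), Spock2 (0.982) and Emilin1 (0.981). For Gcgr they were Spock2 (0.979), Enho (0.964) and Car10 (0.963), and for Gng12 they were Prlr, the prolactin receptor (0.945), Muc4 (0.942) and B830017H08Rik (0.940). Gnas was most like Rpl13a (0.952) and Pcsk2, a prohormone convertase (0.951), and Rgs4 like Tmem27 (0.888) and 5330417C22Rik (0.887). The values were lower for Rgs2, most like Tmem160 (0.773), Gipr, most like Arhgef16 (0.802), and Rgs16, most like Tmem163 (0.847). The libraries share samples and fall by class, so these values describe the order of the classes and carry no test.

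The comparison of PPTx with control asked which members changed after resection. In β-like cells none of the 8 members tested passed over all genes (edgeR adjusted p from 0.234 to 0.996), where 0.225% of 10668 genes did. An unadjusted edgeR p under 0.05 was reached by 856 of all genes tested and, of the members, by Gng12 alone. Its level was 316, 462, 563 and 604 CPM in control replicates 1 to 4 and 621, 947, 748 and 758 CPM in PPTx replicates 1 to 4. All PPTx samples were above all control samples, although control replicate 4 and PPTx replicate 1 were close. The means were 486 ± 128 and 769 ± 135 CPM (SD, n = 4 each, exact two-sided permutation p = 0.0286, the smallest that 4 against 4 allows). The log2 fold change was 0.54 ± 0.17 (edgeR adjusted p = 0.234). With the replicate number as a block, a pairing that the labels do not state, it was 0.59 and passed (edgeR adjusted p = 0.00516). In thinned cells a Gng12 UMI was found in 51.4% ± 11.2 of β-like cells of control and 71.4% ± 8.08 of PPTx samples (exact permutation p = 0.0286).

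Rgs4 was the other member whose groups did not overlap. Its β-like level was 5.10, 8.47, 14.2 and 9.19 CPM in control replicates 1 to 4, from 1, 4, 18 and 8 UMIs, and 16.4, 19.8, 17.6 and 18.2 CPM in PPTx replicates 1 to 4, from 13, 25, 17 and 10 UMIs. The means were 9.23 ± 3.74 and 18.0 ± 1.41 CPM (exact permutation p = 0.0286), and the log2 fold change was 0.61 ± 0.36 (edgeR adjusted p = 0.706). That fold change ran from 0.52 to 1.01 when 1 sample was left out in turn. The shares of β-like cells with an Rgs4 UMI after thinning overlapped, 2.33% ± 0.724 in control and 3.65% ± 1.30 in PPTx samples (exact permutation p = 0.114). Groups without overlap and higher in PPTx were seen for 2 of the 9 genes and for 3.99% of all 10668 genes tested, and with 9 genes examined these exact p-values carry no correction.

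Rgs2 was 408, 161, 223 and 495 CPM in β-like cells of control replicates 1 to 4 and 361, 634, 609 and 665 CPM in PPTx replicates 1 to 4. Of the PPTx samples, 3 lay above every control sample and PPTx replicate 1 lay below control replicates 1 and 4. The means were 322 ± 156 and 567 ± 140 CPM (exact permutation p = 0.0857), and the log2 fold change of 0.76 ± 0.38 did not pass (edgeR adjusted p = 0.699). It did pass when control replicate 4 was left out (1.13, 0.0350) and with no filter on low counts (0.77, 0.0288). It also passed with the replicate number as a block (0.86, edgeR adjusted p = 4.00e-06). The labels do not tie replicate numbers to an animal, litter or day. In PP-like cells Rgs2 was 189, 303 and 636 CPM in control replicates 2 to 4 and 372, 695, 842 and 577 CPM in PPTx replicates 1 to 4, overlapping, with 0.73 ± 0.28 (edgeR adjusted p = 0.946). Leaving out 1 sample in turn, this PP-like change ran from 0.44 to 1.42. In α-like cells the group means were 159 ± 87.6 (n = 4) and 143 ± 124 CPM (n = 3), exact permutation p = 0.829.

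The remaining members overlapped between the groups in β-like cells. P2ry1 had means of 64.7 ± 15.3 CPM in control and 82.4 ± 17 CPM in PPTx samples (log2 fold change 0.31 ± 0.20), with PPTx replicate 2 highest at 107 CPM and control replicate 1 next at 86.6 CPM. Gnas stood at 762 ± 124 and 849 ± 173 CPM (0.09 ± 0.16), Gcgr at 33.7 ± 16.0 and 29.2 ± 7.31 CPM (-0.18 ± 0.27), and Rgs16 at 19.3 ± 6.35 and 22.5 ± 4.84 CPM (0.01 ± 0.32). Gipr stood at 14.8 ± 8.68 and 20.3 ± 12 CPM (0.33 ± 0.40), and its lowest value, 3.65 CPM from 2 UMIs, was in PPTx replicate 4. Leaving out 1 sample in turn, the log2 fold change of Gipr ran from 0.02 to 0.96. In α-like cells Gnas was 4892 ± 143 CPM in control (n = 4) and 5677 ± 969 CPM in PPTx samples (n = 3, exact permutation p = 0.0571), the latter spread set by PPTx replicate 1, which had 4 α-like cells. Of the 4 members tested in α-like and the 4 tested in PP-like cells none passed, where 0.0597% of 5026 and 0 of 5894 genes did, with 281 of the latter at an unadjusted edgeR p under 0.05. The difference in PPTx effect did not pass the interaction test between α-like and β-like cells for Rgs2 (-1.31 ± 0.53, edgeR adjusted p = 0.906), nor between PP-like and β-like cells for Gng12 (1.06 ± 0.64, adjusted p = 1). With 1 sample left out in turn, this Rgs2 difference ran from -1.59 to -0.83 and this Gng12 difference from 0.57 to 1.85. No member passed in either interaction, where 0 of 10756 and 0.0275% of 10906 genes did, with 537 of the former at an unadjusted edgeR p under 0.05. After adjustment DESeq2 called 0 genes in both, with 114 and 169 at an unadjusted p under 0.05.

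Facts of the samples that could move with these values were as follows. Hormone RNA took 65.5% ± 1.57 of the UMIs of β-like cells in control and 62.3% ± 3.46 in PPTx samples, and without hormone genes in the library sizes the Gng12 change was 0.50 and that of Rgs2 0.71. Markers of endothelial, immune, acinar, ductal and stellate cells overlapped between the groups in β-like cells. Immune markers (7 of 7 listed detected) summed to 15.3 to 76.3 CPM in control and 17.6 to 233 CPM in PPTx samples, and acinar markers (7 of 8, Amy2a5 at 0) to 5.74 to 45.9 and 8.30 to 148 CPM. Stellate markers (7 of 7) summed to 0 to 90.7 and 1.04 to 248 CPM, ductal markers (5 of 6, Cftr at 0) to 152 to 203 and 147 to 296 CPM. Endothelial markers (3 of 6; Pecam1, Cdh5 and Flt1 at 0) summed to 0.787 to 10.2 and 1.82 to 8.83 CPM. Their part in the members' values was not tested.

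**Figure D4:**
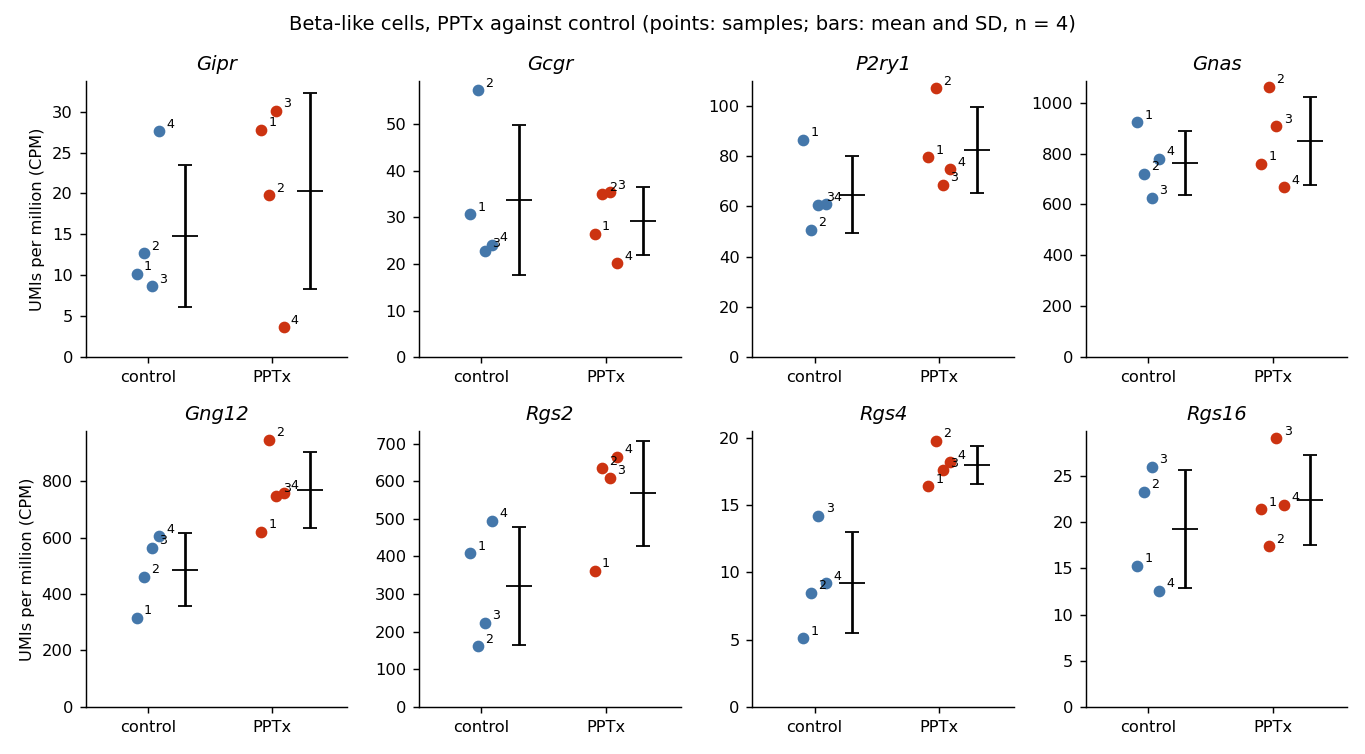
Level of 8 members in β-like cells (CPM, linear axis from 0) in 4 control and 4 PPTx samples; points are samples with their replicate number, and bars show mean and SD. Only Gng12 and Rgs4 have all PPTx samples above all control samples.

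Of the pathway lists, Trpm5 was the only gene to pass in β-like cells after PPTx. It was 183, 108, 127 and 142 CPM in control replicates 1 to 4 and 53.0, 84.8, 66.4 and 76.6 CPM in PPTx replicates 1 to 4, so that all PPTx samples were lower, and its log2 fold change was -1.05 ± 0.19 (edgeR adjusted p = 6.30e-04). None of the 20 receptor, 17 subunit, 16 RGS, kinase and arrestin and 22 cAMP genes tested passed in β-like cells. With 0.225% of all 10668 genes passing, lists of this size could hold no call without differing from other genes.

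The study's aim of describing replicating β-cells was addressed by comparing β-like cells with at least 2 UMIs over 10 replication genes such as Mki67 and Top2a (41 of 953) with the other β-like cells of the same samples. The comparison used the 6 samples with at least 3 such cells, which left out the 1 cell each of control replicates 1 and 2. Rgs2 was lower, -1.29 ± 0.28 (edgeR adjusted p = 3.53e-04), as was Gng12, -1.04 ± 0.26 (0.00433), so that 2 of 8 members tested passed where 5.27% of 10536 genes did. Under TMM, though, the median gene lay at -0.57. The mean levels over the 6 samples were 601 ± 326 CPM in replicating and 709 ± 140 CPM in other β-like cells for Gng12, and 369 ± 264 and 505 ± 175 CPM for Rgs2. Without hormone genes in the library sizes, where the median gene lay at -0.08 and 304 genes were higher and 47 lower against 197 and 358 under TMM, Gng12 was at -0.40 (0.301) and Rgs2 at -0.66 (0.0448). With DESeq2 neither passed (adjusted p = 0.113 for Rgs2 and 0.401 for Gng12), and Gng12 also lost its call without control replicate 3 or 4 (edgeR adjusted p = 0.0905 and 0.0974). Rgs2 in replicating cells was 109 and 648 CPM in control replicates 3 and 4, and 116, 726, 352 and 262 CPM in PPTx replicates 1 to 4. It was lower than in the other β-like cells of the sample in 4 of 6 samples (exact sign-flip permutation p = 0.188). The Gng12 level of replicating cells was 283 and 130 CPM in the control and 849, 964, 681 and 698 CPM in the PPTx samples, lower than in the other β-like cells in 4 of 6 (exact p = 0.312), and it rests on 13 and 3 UMIs in the control samples. Gnas in CPM was higher in replicating cells in 6 of 6 samples, 1155 ± 221 against 784 ± 156 CPM (exact sign-flip permutation p = 0.0312, the smallest possible). Its log2 fold change was -0.21 ± 0.25 under TMM (edgeR adjusted p = 0.637) and 0.41 without hormone genes (0.215), so its direction depended on the scaling.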

How the data were processed

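Islet cells were isolated in droplets on a ddSEQ Single-Cell Isolator. For the library kit the labels name Chromium and the study's methods SureCell. The authors demultiplexed with bcl2fastq, aligned to mm10 and counted with Cell Ranger, and deposited a table of UMI counts per cell and gene for each sample, without normalization. Strand use and doublet removal are not given in the sources used here, and no doublet caller was run.

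The study's limits on cells were applied (100 to 3000 detected genes, 100 to 20000 UMIs), and 1 barcode occurred in more than 1 sample. Counts were summed per sample and class (at least 3 cells). Genes with at least 10 UMIs over the libraries of a comparison and a UMI in 3 of them were tested with edgeR 4.0.16 (TMM, robust quasi-likelihood, two-sided, Benjamini-Hochberg over all genes, threshold 0.05). The sample was a block between classes. Exact permutation tests used CPM. The edgeR test was run on simulated counts with a log2 change of 1.5 in 200 genes. Of these genes, where tested, it recovered 53.8% for PPTx in β-like, 22.4% in PP-like and 2.63% in α-like cells. Recovery was 1.2% in δ-like against β-like cells, 0.513% and 3.59% in the α-like and PP-like interactions, and 16.2% to 38.9% in the other comparisons. A gene that did not pass may therefore still have changed. P-values measure the spread between samples, which pool islets of 1 to 3 mice. Shares of cells were taken after thinning to 2000 UMIs, which kept every cell. Tests used R 4.3.3, DESeq2 1.42.0 and scipy 1.17.1. Alternatives were other filters, scalings, cell limits and hormone ratios, DESeq2, thinning, a replicate block and leaving out each sample. All 9 members were named. From the lists, up to 3 genes per direction with a mean log2 CPM of at least 5 could be named, and not all of these are named here. Members and lists were chosen with earlier results of these data known. Promoter sequences came from RefSeq, whose build GRCm38.p6 is that of mm10. Of the 3 genes most like each member, all are named for P2ry1, Gcgr and Gng12, 2 for Gnas and Rgs4, and 1 for Rgs2, Gipr and Rgs16, and the others are not reported here.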

Additional observations from a re-analysis of the deposited data

Results flagged for a closer look

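Of 31 groups of 4 samples tested for a sample far from the others, 1 was singled out, where chance gives about 1 in 20. Gcgr was 4.51 CPM in PP-like cells of PPTx replicate 2, from 1 UMI, and 0 in the other 3 PPTx samples. Any count beside 3 values of 0 gives this flag, so the rate of 1 in 20 does not apply to it. No member passed the interaction test of its PPTx effect between classes.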

How the results depend on the processing

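The 17 member results past the threshold were recomputed under 288 combinations of result and alternative. None changed direction, 275 stayed past the threshold, and 11 of the 17 did so under every alternative run. Those that lost the call were Rgs16 in α-like cells (DESeq2, at least 10 cells per library, without control replicate 3) and in PP-like cells (DESeq2, without PPTx replicate 2), Gng12 in δ-like cells (DESeq2), Rgs2 between PP-like and α-like cells (thinned cells), and Rgs2 (DESeq2) and Gng12 (RLE, hormone-free, DESeq2, without control replicate 3 or 4) in replicating cells. The cause was not tested.

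Member changes that turned direction had not passed the test. They were Rgs2 in PP-like against β-like cells (0.02 with filterByExpr, 0.09 with RLE and DESeq2, 0.17 with hormone-free library sizes), and Gnas in replicating cells (0.31 with RLE, 0.32 with DESeq2, 0.41 hormone-free). With PPTx in β-like cells, they were Gipr in thinned cells (-0.27) and Rgs16 (-0.00183 with filterByExpr, -0.02 hormone-free and with no minimum hormone ratio, -0.51 in thinned cells), and, leaving out 1 sample in turn, Gcgr (-0.36 to 0.17) and Rgs16 (-0.19 to 0.35). In PP-like cells Rgs2 was at -0.04 with at least 10 cells per library.

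Genes called moved by over 1.5 times as follows. α-like against β-like cells gave 1539, and 803 with DESeq2, 917 in thinned cells and 804 with at least 10 cells per library. PP-like against β-like cells gave 1604, and 881 with DESeq2 and 1010 in thinned cells. δ-like against β-like cells gave 57, and 28 with RLE, 23 hormone-free, 13 with DESeq2 and 19 in thinned cells, with 1 member called, 2 with filterByExpr and hormone-free and 0 with DESeq2. PP-like against α-like cells gave 41, and 110 with filterByExpr, 73 with RLE, 92 hormone-free and 10 in thinned cells, with 1 member called, 2 with filterByExpr, RLE, hormone-free and DESeq2, 0 in thinned cells, and 1 to 2 leaving out a sample. Replicating cells gave 555, and 321 with filterByExpr, 339 with RLE, 351 hormone-free, 234 with DESeq2 and 236 to 452 leaving out a sample, with 2 members called, 1 with RLE and hormone-free, 0 with DESeq2 and 1 to 2 leaving out a sample. PPTx in β-like cells gave 24, and 64 with no filter, 12 in thinned cells and 7 to 53 leaving out a sample, with 0 members called, 1 with no filter and 0 to 1 leaving out a sample. PPTx in α-like cells gave 3, and 1 with no filter and 0 with no minimum hormone ratio. PPTx in PP-like cells gave 0, and 1 in thinned cells, 1 with at least 10 cells, 1 with no minimum hormone ratio, 2 with a hormone ratio of 4 and 0 to 2 leaving out a sample. The interaction between PP-like and β-like cells gave 3, and 1 with filterByExpr, no filter, thinned cells and a ratio of 4, 0 with RLE, hormone-free, DESeq2 and at least 10 cells, and 0 to 3 leaving out a sample.

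Control and PPTx samples share replicate numbers that the labels do not tie to an animal, litter or day. Deviations in β-like cells correlated between same-numbered samples at r = 0.118, 0.0979, 0.141 and 0.288 over 1577 genes. Among the PPTx samples, each control sample correlated best with that of its own number, as a hint from the data only. With the replicate block, 72 genes were called in β-like cells, among them 2 members, Gng12 (0.59, edgeR adjusted p = 0.00516) and Rgs2 (0.86, 4.00e-06), and 1 gene in PP-like cells. Counting Ghrl among the hormones, an alternative chosen after seeing the data, moved no count of calls by over 1.5 times. At least 10 cells per library could not be fitted for δ-like, PP-like against α-like and replicating cells, PPTx in α-like cells and its interaction, nor could a hormone ratio of 4 or leaving out a sample for δ-like cells. Low counts limit the values of Glp1r, Gipr, Rgs16, Rgs4 in β-like cells and all members in δ-like cells.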
